A study of Mus musculus with 4 samples.

Results

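B cells that carried a BCL2 transgene (BCL2.Tg) were compared with B cells without it that had answered the same antigen in the same recipient mice. Both kinds were splenic MD4 B cells, which bear a transgenic antibody receptor against hen egg lysozyme (HEL), and both were Dock8wt/wt. The transgenic cells were CD45.2+ and the others CD45.1+, allelic forms of the surface protein CD45 that allow sorting. A mixture of both was transferred into CD45.1+ WT recipients, which were then immunized with sheep red blood cells coupled to HEL (SRBC-HEL) and analysed on day 8. Mice of the study were of both sexes and 8 to 12 weeks old. The transgene encodes human BCL2 and is restricted to B cells, and the donors of the transgenic and non-transgenic cells were different animals.

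The series holds 1 CD45.2 and 1 CD45.1 sort, each with an mRNA library and a hashtag library, made from CD95+ HEL+ B cells of 6 recipients whose cells had been tagged with antibodies and pooled. In 3 recipients, the WT group, the CD45.2 cells were BCL2.Tg Dock8wt/wt; in the other 3 they were BCL2.Tg and also Dock8 mutant. Cells with 100 to 5500 genes and under 10% mitochondrial counts were assigned by hashtag, to the recipient whose tag had 3-fold or more counts than any other tag. This left 10258 cells of the WT group among 13284 cells of both groups, 7961 of them CD45.2 and 2297 CD45.1. Recipients 1, 2 and 3 gave 2388, 3486 and 2087 CD45.2 cells and 421, 626 and 1250 CD45.1 cells, a ratio of 5.67, 5.57 and 1.67, and values below are given in that order of recipients. The antibody tags that separate them, the designed oligonucleotides on which every assignment rests, read as follows from 5′ to 3′.

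B0301, WT-group recipient 1: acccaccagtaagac
B0302, WT-group recipient 2: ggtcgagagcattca
B0303, WT-group recipient 3: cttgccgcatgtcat

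BCL2 is the founding member of a family of proteins that decide whether the mitochondrial outer membrane is opened to start apoptosis. Protective members such as BCL2, MCL1 and BCL-xL hold back BAX and BAK, and the BH3-only proteins such as BIM and PUMA counter the protective members. In the germinal centre (GC), B cells divide and mutate their receptors in the dark zone, then test them in the light zone, where those without antigen and T cell help die; GC B cells normally keep Bcl2 low, while naive, memory and long-lived plasma cells express it.

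Sort, mRNA library, CD45 allele, transgene and donor changed together, and their parts in any difference reported below cannot be told apart. The 3 recipients of a sort shared 1 library, so the spread between recipients holds no variation between libraries. Total counts of unique molecular identifiers (UMIs) per recipient ran from 19005753 to 26629524 in CD45.2 and from 2621582 to 9911574 in CD45.1 cells, with medians per cell of 6448 to 7735 and 5149 to 7089. The 2 sorts shared 13 barcodes among kept cells.

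Further measured differences between the libraries bear on what follows. In the few T cells of the libraries, the level of 10 B cell genes reached a median of 20.3% of their level in the whole library in the CD45.2 sort (92 cells) and 1.87% in the CD45.1 sort (47 cells), so RNA of other cells was more abundant in CD45.2 barcodes. Each gene comparison in the WT group was therefore also fitted after that share of the library's mean profile had been taken off each summed profile. The text calls this subtraction, and it was chosen after the data were seen. The classes of cells and their shares were not recomputed in this way. Neither were the Bcl2 counts in single cells or the comparison with the other recipients. Y-linked UMIs were found in 5.84%, 8.49% and 6.00% of CD45.2 cells with at least 4000 UMIs and in 0 of 306, 0 of 399 and 0 of 1046 CD45.1 cells, which allows shares of up to 0.980%, 0.752% and 0.287%; in the CD45.2 cells of the other recipients they were found in 54.8% to 64.2%. A note in the study's tables on the sex of the donors runs opposite to these counts, so the donors' sex per group is uncertain. Xist, the RNA that coats the inactive X chromosome, stood at 1264, 1362 and 1180 counts per 1000000 in CD45.2 and 1168, 1116 and 1046 in CD45.1 cells. In the CD45.2 cells of the other recipients Xist stood at 350, 316 and 286. Of CD45.2 cells with at least 4000 UMIs, 94.2%, 95.3% and 94.6% had 2 or more Xist UMIs in the WT group. In the other recipients 24.4%, 35.3% and 23.6% did. The part of each of these in the results was not tested.

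The labels were checked against genes that define them. Igkv5-43 and Ighv3-8, the variable segments of the MD4 receptor, took 97.9% to 99.6% of kappa and 95.4% to 99.2% of heavy variable segment UMIs in every profile of both sorts. Host B cells were CD45.1+ like the non-transgenic cells, so this purity rather than the CD45 allele separates transferred from host cells. Ptprc, the gene of CD45, did not differ in non-plasma cells (log2 fold change 0.07, edgeR adjusted p = 0.674), nor did Dock8, at 111, 112 and 104 counts per 1000000 (CPM, normalized between profiles) in CD45.2 and 92.5, 107 and 117 in CD45.1 cells (log2 fold change 0.04). In plasma cells edgeR called Ptprc higher in CD45.2, at 330, 313 and 251 counts per 1000000, not normalized, against 179, 150 and 143. That call was lost after subtraction (log2 fold change 0.31, edgeR adjusted p = 0.130). Ptprc counts were not split by allele, so they do not check the CD45 label.

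Cells were sorted into classes by marker genes. For shares of cells, each cell was first thinned to 2000 UMIs. The gene comparisons, the Bcl2 counts in single cells and the counts near a cut used the same gates on unthinned cells. Plasma cells had at least 100 UMIs of Jchain, the joining chain of secreted IgM, per 10000; T cells had at least 2 UMIs of T cell receptor genes; cycling cells had at least 20 UMIs per 10000 of 16 division genes such as Mki67 and Top2a. The rest were GC-like where 10 GC genes such as Mef2b and S1pr2 had more UMIs than 10 naive and memory genes such as Ighd and Cd38, and non-GC-like in the opposite case. These classes are ranges of a score and not types: 663 of 10258 cells lay within 2-fold of the Jchain cut, 307 of 7844 near the cycling cut, and 314 of 6117 within 2 UMIs of a tie between the GC and the naive and memory genes. Median UMIs of the GC genes were 4 in GC-like cells of either sort and 0 in non-GC-like cells, and the naive and memory genes had medians of 9 and 10 in CD45.2 and CD45.1 non-GC-like cells.

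The GC-like share was lower in CD45.2 than in CD45.1 cells in all 3 recipients. GC-like cells made up 3.62%, 10.9% and 7.01% of CD45.2 cells and 27.2%, 32.9% and 16.6% of CD45.1 cells. The groups did not overlap, with means of 7.17% ± 3.64 and 25.6% ± 8.26 (SD, n = 3), a difference of -18.4 points. Non-GC-like cells showed the opposite order, with 60.1%, 47.8% and 43.3% of CD45.2 and 30.1%, 21.5% and 32.9% of CD45.1 cells, again without overlap. Plasma cells took 16.8%, 22.1% and 23.9% of CD45.2 and 18.4%, 28.4% and 34.4% of CD45.1 cells. This share was lower in CD45.2 in every recipient, although the ranges overlapped. That order did not hold in recipients 1 and 2 once Bcl2-high CD45.1 plasma cells, described below, were left out. For each of these 3 classes the two-sided exact permutation test over recipients gave p = 0.25, the smallest that 3 pairs allow. Cycling cells took 17.6%, 16.1% and 23.4% of CD45.2 and 21.3%, 13.6% and 13.5% of CD45.1 cells, higher in 2 of 3 recipients (two-sided exact permutation test, p = 0.75). The plot of class shares by recipient shows these pairs.

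**Figure D1:**
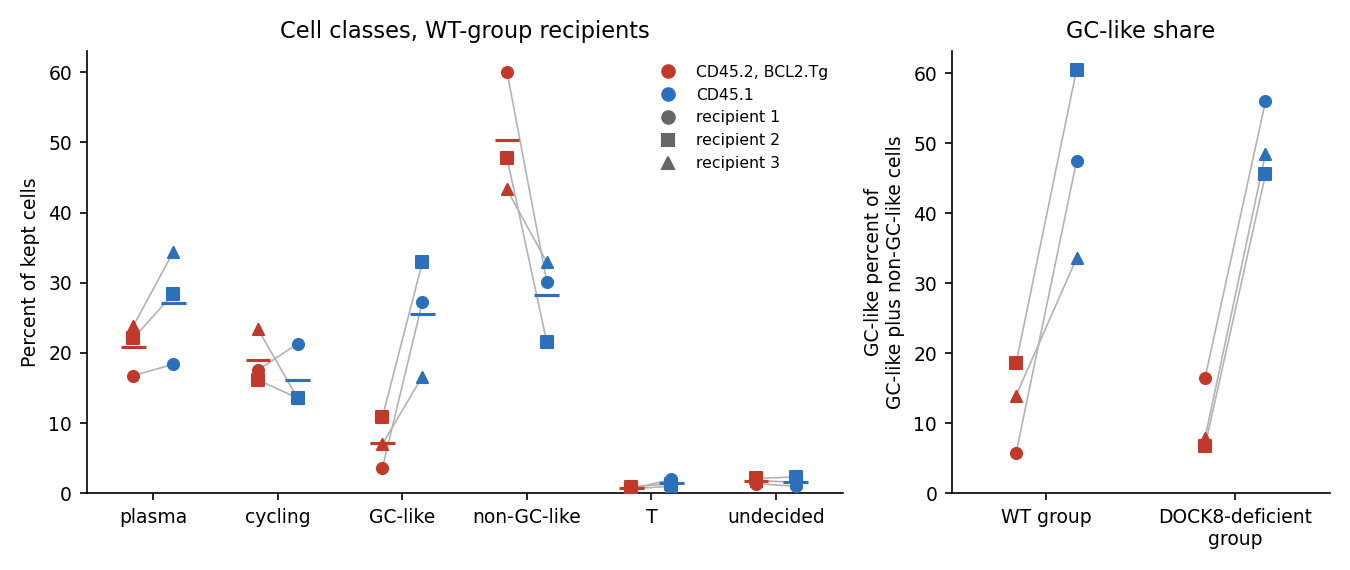
Left, percent of kept cells thinned to 2000 UMIs in each class, per recipient (marker shape) and sort (red, CD45.2 BCL2.Tg; blue, CD45.1), with lines joining the 2 sorts of a recipient and bars at the means. Right, GC-like cells as a percent of GC-like plus non-GC-like cells in the WT group and in the recipients whose CD45.2 cells are also Dock8 mutant. In each of the 6 recipients the GC-like share is lower in CD45.2 cells.

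Without thinning, GC-like shares were 3.52%, 12.4% and 7.47% against 27.3%, 35.0% and 18.3%. Among cells of 3000 to 7000 UMIs, a range chosen after the data were seen, the mean difference was -26 points for GC-like and 30.9 points for non-GC-like cells, but it turned to 1.70 points for plasma and -5.65 points for cycling cells, classes many of whose cells lie outside that range. Taken over GC-like plus non-GC-like cells alone, GC-like cells were 5.67%, 18.5% and 13.9% in CD45.2 and 47.4%, 60.5% and 33.6% in CD45.1. In the recipients whose CD45.2 cells were also Dock8 mutant the same share was 16.5%, 6.73% and 7.90% against 56.0%, 45.6% and 48.5%; their cells came from other animals but the same libraries. With Ighd taken out of the marker genes, the WT-group difference was -33.5 points in place of -34.4.

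Loss of the hashtag was not even across classes in either library. Of the 23467 CD45.2 barcodes that passed the cell filter, 14439 had hashtag counts and 8831 were assigned to a recipient. GC-like cells were 12.8% (exact binomial interval 11.9% to 13.8%) of GC-like plus non-GC-like barcodes among those assigned, 18.6% (17.3% to 20.1%) among those with hashtag counts but not assigned, and 37.3% (35.9% to 38.8%) among those without hashtag counts. Over all passing barcodes, of both groups of recipients, the share was 23.0% in CD45.2 and 47.8% in CD45.1, so it remained lower in CD45.2 by a smaller margin. These intervals cover counting error only, and barcodes that were not assigned cannot be tied to a recipient.

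Within cycling cells, GC genes exceeded naive and memory genes in 73.8%, 79.4% and 78.7% of CD45.2 and 93.6%, 94.5% and 82.5% of CD45.1 cells. The groups did not overlap (77.3% ± 3.04 against 90.2% ± 6.68, SD, n = 3, two-sided exact permutation test, p = 0.25, the smallest possible). Cycling cells with more G2 and M phase than S phase UMIs were 53.5%, 60.9% and 61.0% in CD45.2 and 50.6%, 64.6% and 59.8% in CD45.1, which overlapped.

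The transgene's own gene came next. Reads were counted on the mouse Bcl2 gene (chromosome 1 of GRCm38 from 106538178 to 106714274, minus strand), the table has no human BCL2 feature, and whether the UMIs came from the transgene or from the mouse gene was not tested. In GC-like cells Bcl2 stood at 168, 187 and 112 CPM in CD45.2 and 9.28, 6.28 and 5.28 CPM in CD45.1. Every CD45.2 value was far above every CD45.1 value, a log2 fold change of 4.50 (SE 0.22, edgeR adjusted p = 6.4e-10) or 22.6-fold. Cycling cells had 98.8, 111 and 87.4 CPM against 2.79, 13.8 and 20.4 CPM, without overlap, a log2 fold change of 2.78 (SE 0.24, edgeR adjusted p = 4.3e-07).

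Non-GC-like cells started from a higher level and differed less. Their Bcl2 was 226, 236 and 187 CPM in CD45.2 and 101, 77.7 and 69.0 CPM in CD45.1, a log2 fold change of 1.41 (SE 0.10, edgeR adjusted p = 2.3e-12). In plasma cells it was 493, 463 and 534 CPM against 270, 304 and 91.8 CPM, a log2 fold change of 1.36 (SE 0.20, edgeR adjusted p = 1.6e-05) that DESeq2 did not call (1.33, adjusted p = 0.124) and that was 0.10 among cells of 3000 to 7000 UMIs. No test compared the classes with each other. After subtraction the log2 fold changes were 4.49 in GC-like, 2.21 in cycling, 1.41 in non-GC-like and 1.74 in plasma cells.

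**Figure D2:**
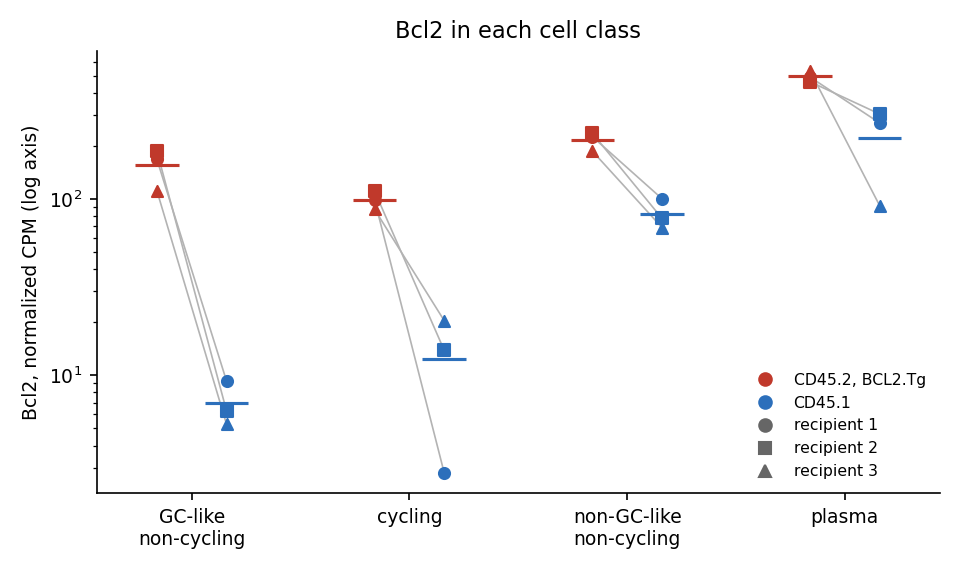
Bcl2 level (normalized CPM, log axis) in each cell class, per recipient (marker shape) and sort (red, CD45.2 BCL2.Tg; blue, CD45.1), with lines joining the 2 sorts of a recipient and bars at the means. In CD45.1 cells the level runs from 5.28 to 9.28 CPM in GC-like cells and from 91.8 to 304 CPM in plasma cells, while no CD45.2 value in any class is under 87.4 CPM.

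Counted in single cells, Bcl2 divided the CD45.1 plasma cells of the WT group. Cells with 3 or more Bcl2 UMIs were 68.2%, 70.0% and 71.5% of CD45.2 plasma cells. Among CD45.1 plasma cells of the WT group they were 21 of 76, 56 of 173 and 43 of 417, or 27.6%, 32.4% and 10.3%, while the CD45.1 plasma cells of the other recipients had 4.05%, 3.91% and 3.45%. Among CD45.1 GC-like cells they were 0 of 115, 0 of 219 and 0 of 229, which allows up to 2.61%, 1.37% and 1.31%. These Bcl2-high CD45.1 plasma cells also had less Ctse (cathepsin E), an endosomal protease, with 20.1, 14.7 and 25.6 counts per 1000000 against 59.9, 67.7 and 58.4 in CD45.1 plasma cells without a Bcl2 UMI. The rates rest on few counts, 3, 7 and 12 Ctse UMIs against 27, 74 and 239. Whether the Bcl2-high CD45.1 plasma cells were CD45.2 cells within the CD45.1 sort was not tested. With them left out, the unthinned CD45.1 plasma share was 13.75%, 20.5% and 31.0%, against 16.6%, 21.5% and 23.6% in CD45.2, where no cells were removed. CD45.2 was then higher in recipients 1 and 2 and lower in recipient 3. The plasma shares above include these Bcl2-high cells. So do the folds of WT-group plasma cells below and their comparison with the other recipients.

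Over all non-plasma cells, edgeR's quasi-likelihood test with recipient as block called 175 genes higher and 189 lower in CD45.2 among 10903 tested, or 1.61% and 1.73% and together 3.34%, at an adjusted p under 0.05. In these sums fewer cells of a type and less RNA per cell cannot be told apart, and the class shares above differ between the sorts. After subtraction 103 were higher and 141 lower of 10737 tested (0.959% and 1.31%, together 2.27%), and 206 of the 364 genes kept their call and direction. Values of the 2 sorts did not overlap for 25.5% of the genes tested. Leaving out recipient 1 left 61 and 68 genes and leaving out recipient 2 left 42 and 27, while without recipient 3 there were 828 and 767.

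**Figure D3:**
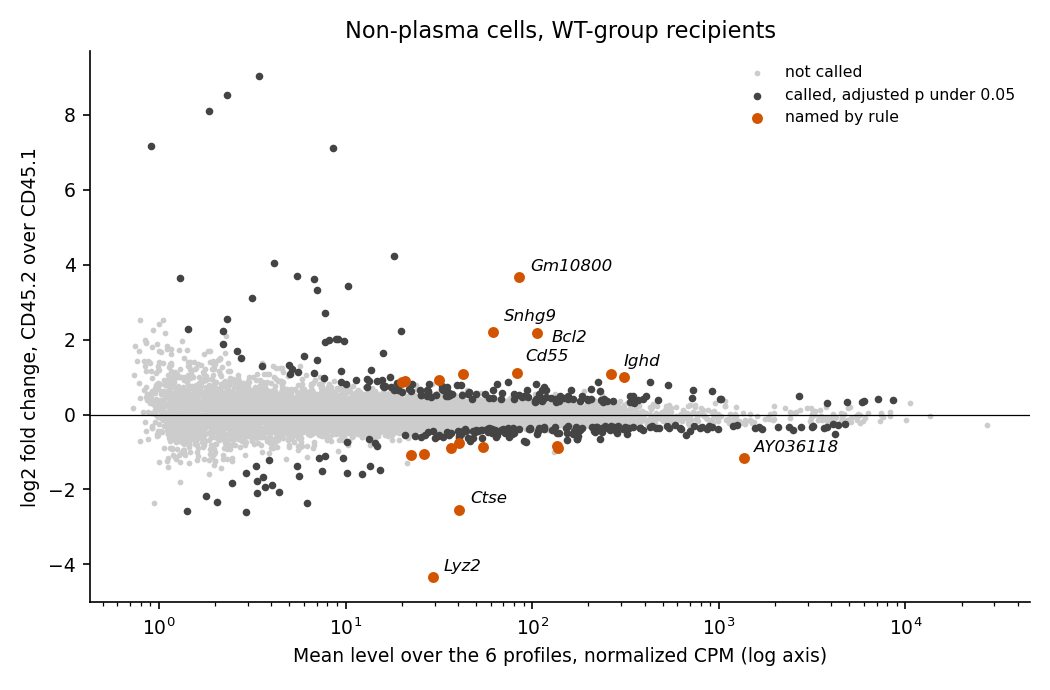
Log2 fold change of CD45.2 over CD45.1 non-plasma cells against the mean level of each gene over the 6 profiles (normalized CPM, log axis), with called genes dark and the genes named by rule in orange. Gm10800, Snhg9 and Bcl2 lie highest and Lyz2 and Ctse lowest among the genes with a mean of at least 20 CPM.

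Besides Bcl2, 4 other members of the family were called. Of 7 protective genes tested, Bcl2 rose and Bcl2a1b, a protective gene with near-identical copies whose reads are hard to place, fell from 166, 169 and 155 CPM in CD45.1 to 105, 108 and 132 in CD45.2 (log2 fold change -0.50, edgeR adjusted p = 0.018). All 3 CD45.2 values of Bcl2a1b were below the CD45.1 values, and the call was lost after subtraction (adjusted p = 0.053). Mcl1, the protective protein on which GC B cells depend, was not called, at 380, 391 and 335 CPM in CD45.2 and 398, 433 and 397 in CD45.1 (log2 fold change -0.16, adjusted p = 0.27).

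Among 8 of 11 proapoptotic genes that could be tested, 2 rose and 1 fell. Bcl2l11, which encodes the BH3-only protein BIM, stood at 152, 134 and 148 CPM in CD45.2 and 73.2, 68.7 and 120 in CD45.1. The values did not overlap, though CD45.1 recipient 3 came close (log2 fold change 0.73, SE 0.13, edgeR adjusted p = 0.010; 0.43 and adjusted p = 0.168 after subtraction). Within non-GC-like cells the call held both ways, with 174, 161 and 176 CPM against 95.7, 94.4 and 113 CPM (log2 fold change 0.73, SE 0.10, edgeR adjusted p = 1.4e-06; 0.60 after subtraction, adjusted p = 4.8e-04). Bbc3, which encodes PUMA, rose from 10.2, 7.21 and 4.87 to 14.3, 14.6 and 9.37 CPM (log2 fold change 0.82, edgeR adjusted p = 0.041), with overlap between the sorts, and was not called after subtraction (adjusted p = 0.075). Bid, whose product links death receptors to mitochondria, fell to 47.2, 47.7 and 54.5 CPM from 66.6, 63.6 and 71.0 CPM in CD45.1 (log2 fold change -0.43, edgeR adjusted p = 0.024), without overlap.

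Downstream of these, edgeR called 0 of 14 genes of the caspase and inhibitor machinery and 0 of 8 targets of p53 in non-plasma cells, where 0 and 2 had an unadjusted p under 0.05 and DESeq2 also called 0 and 0. Their median log2 fold changes were 0.03 and 0.21, beside 0.01 over all genes. Tnfrsf13c, the receptor through which BAFF keeps mature B cells alive, was the 1 of 8 survival receptor genes called. It stood at 255, 265 and 274 CPM in CD45.2 and 368, 382 and 386 CPM in CD45.1, a wide gap beside the narrow spread within each sort. Its log2 fold change was -0.52 (edgeR adjusted p = 0.0025), and in the single classes it was -0.41 in GC-like, -0.43 in non-GC-like and -0.28 in cycling cells. In plasma cells it was 0.43, and 0.03 after subtraction.

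Part of the genes of naive and follicular B cells were higher over all non-plasma cells. Of 16 naive and follicular genes, 7 rose and 1 fell, with a median log2 fold change of 0.48. Ighd, the constant region of the IgD that naive B cells display, was at 436, 403 and 251 CPM in CD45.2 and 193, 138 and 172 CPM in CD45.1. Lowest of the CD45.2 values was recipient 3, still above all CD45.1 values (log2 fold change 1.07, SE 0.14, edgeR adjusted p = 0.0021). S1pr1, the receptor for the egress signal S1P, was at 160, 150 and 99.5 CPM against 64.5, 68.3 and 87.3 CPM (log2 fold change 0.83, edgeR adjusted p = 0.021; adjusted p = 0.051 after subtraction). Btg1, an antiproliferative gene, was at 1240, 1211 and 929 CPM against 722, 727 and 716 (log2 fold change 0.63, edgeR adjusted p = 0.0021). Cr2, the complement receptor that catches antigen for B cells, went the other way, with 49.8, 51.4 and 79.2 CPM against 85.3, 80.1 and 106 CPM (log2 fold change -0.60).

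Light zone and GC genes fell in small numbers. Of 20 light zone and T cell help genes, Cd83 and Cd86 were lower and none was higher, with a median log2 fold change of -0.22. Cd86, a ligand that costimulates T cells, was at 47.0, 58.7 and 46.6 CPM in CD45.2 and 71.6, 90.3 and 69.8 CPM in CD45.1 (log2 fold change -0.60, edgeR adjusted p = 0.0033). Cd83, an activation marker that sets MHC class II turnover, was at 167, 209 and 167 CPM against 252, 307 and 203 CPM (log2 fold change -0.47, edgeR adjusted p = 0.011), with recipient 2 of CD45.2 above recipient 3 of CD45.1. Of 20 GC identity genes 4 fell and none rose, and Rgs13, which damps chemokine receptor signals in GC B cells, had 52.6, 80.8 and 72.6 CPM against 144, 116 and 89.3 CPM (log2 fold change -0.74). Bcl6, the master regulator of GC B cells, was not called, with -0.07.

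Of the division genes edgeR and DESeq2 called 0 of 20 S phase and 0 of 20 G2 and M phase genes over all non-plasma cells, with 3 and 5 at an unadjusted p under 0.05 and median log2 fold changes of -0.05 and 0.18. Plasma cell genes ran lower there, with 7 of 24 lower and a median of -0.34, or 18 of 24 after subtraction, which lowers such genes in CD45.2 non-plasma sums by construction. Ighg2b, the IgG2b constant region, was higher, with 258, 237 and 379 CPM against 125, 148 and 207 CPM and no overlap (log2 fold change 0.86, edgeR adjusted p = 2.0e-04, and 0.93 after subtraction). In the other recipients its difference between the sorts was -0.21 on the log2 scale and not called.

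Several of the strongest differences were in genes of little known function. Gm10800, a predicted gene on chromosome 2 whose sequence has near-identical copies so that its reads are hard to place, was at 154, 171 and 150 CPM in CD45.2 and 14.7, 11 and 11.8 CPM in CD45.1 (log2 fold change 3.67, SE 0.12, edgeR adjusted p = 1.1e-08). Snhg9, a small nucleolar RNA host gene, was at 104, 102 and 99.4 CPM against 18.8, 25 and 21.7 CPM (log2 fold change 2.21). AY036118, a noncoding RNA that shares its locus with other annotated transcripts, was at 890, 869 and 772 CPM against 1841, 1961 and 1848 CPM (log2 fold change -1.16). In each of these 3 genes the 2 sorts lay far apart with little spread between recipients. In the other recipients, whose CD45.2 cells were also Dock8 mutant, the same difference was 3.56 for Gm10800, 2.49 for Snhg9 and -1.35 for AY036118 on the log2 scale.

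Tsix, the antisense transcript of Xist, was at 59.3, 62.4 and 52.2 CPM in CD45.2 and 25.9, 28.8 and 26.4 CPM in CD45.1 (log2 fold change 1.08, SE 0.10, edgeR adjusted p = 1.5e-04). Whether counting used strand is not given in the sources used here, so reads of Tsix and Xist may be mixed. In the other recipients the Tsix difference was 0.00. The Y-linked genes Ddx3y and Eif2s3y were at 3.51, 5.92 and 4.43 CPM and 3.31, 4.99 and 2.76 CPM in CD45.2, with no UMI in CD45.1. Neither was tested after subtraction.

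Of the remaining genes named by rule in non-plasma cells, Cd55, which protects cells from complement, rose from 43.7, 47.1 and 59.7 to 140, 123 and 81.6 CPM (log2 fold change 1.10, edgeR adjusted p = 0.0067). Hist1h2ap, a replication-dependent histone with near-identical copies, rose from 261, 188 and 177 to 403, 338 and 501 CPM (log2 fold change 1.0). The mitochondrial gene mt-Nd6, Wdfy1 and Pcp4 rose by 0.91, 0.89 and 0.88. Ctse fell to 8.99, 9.54 and 17.8 CPM from 68.1, 59.8 and 80.4 CPM (log2 fold change -2.53, SE 0.14, edgeR adjusted p = 8.9e-07). H1f0, a linker histone of resting cells, fell to 11.2, 14.8 and 16.8 CPM from 27.9, 34.8 and 28.6 CPM (log2 fold change -1.07), and Ssr2, a subunit of the translocon-associated complex of the endoplasmic reticulum, to 90.0, 88.5 and 108 CPM from 144, 178 and 217 CPM (log2 fold change -0.90). Pacsin1 and Anxa2 had log2 fold changes of -1.06 and -0.87. S100a6 and the lambda segment Iglv1, which has a similar copy, had -0.83 and -0.76, and among cells of 3000 to 7000 UMIs 0.078 and 0.19. In that range Hist1h2ap had 0.30 (edgeR adjusted p = 0.302) and Ssr2 -0.29 (edgeR adjusted p = 0.0719), and neither was called.

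Markers of other cells moved with these sums. Of 12 T cell genes 8 were lower and none higher, such as Lck, a kinase of the T cell receptor that some B cells also express, with 21.9, 31.2 and 23.2 CPM against 51.8, 58.5 and 34.1 CPM. The summed T cell list ran from 52.6 to 83.3 counts per 1000000 in CD45.2 and from 111 to 196 in CD45.1, with no marker at 0, and T cells made up 0.723% and 1.42% of the kept cells. Lyz2, the lysozyme of myeloid cells, was at 1.15, 6.75 and 0.726 CPM in CD45.2 and 77.7, 51.3 and 39.6 CPM in CD45.1 (log2 fold change -4.34, SE 0.41, edgeR adjusted p = 1.4e-04). The myeloid list of 12 genes summed to 62.8 to 66.7 counts per 1000000 in CD45.2 and 100 to 133 in CD45.1, and the part of T cells and myeloid cells in the results was not tested.

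In GC-like cells edgeR called 151 genes higher and 100 lower of 7316 (2.06% and 1.37%, together 3.43%), and after subtraction 51 and 39 of 6928 (0.736% and 0.563%, together 1.3%). They came from 84, 431 and 156 CD45.2 and 115, 219 and 229 CD45.1 cells whose median UMIs were 5273 to 7567 and 3368 to 4642, so CD45.2 cells were the deeper ones. Without recipient 1 there were 57 and 23 genes, without recipient 2 34 and 12, and without the recipient block 61 and 20. Genes that set the class are no results inside it. Beyond Bcl2, the chemokine receptor gene Cxcr4, which draws B cells into the dark zone, was at 53, 51.5 and 50.9 CPM in CD45.2 and 27.9, 26.4 and 27.3 CPM in CD45.1. The 2 sorts were tight and well apart (log2 fold change 0.93, SE 0.19, edgeR adjusted p = 0.0098; 0.92 and adjusted p = 0.041 after subtraction), and Cxcr4 was the 1 of 9 dark zone genes called. It lies on chromosome 1 within 10 Mb of Ptprc.

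The light zone genes Cd83 and Cd86 were lower in GC-like cells too. Cd83 was at 330, 410 and 288 CPM against 453, 609 and 338 CPM, lower in CD45.2 within each recipient (log2 fold change -0.43, edgeR adjusted p = 0.0084). Cd86 was at 63.6, 108 and 77.7 CPM against 123, 147 and 128 CPM (log2 fold change -0.64, edgeR adjusted p = 0.010). Both calls were lost after subtraction, at adjusted p = 0.159 and 0.120. Cd74, the invariant chain of MHC class II, was at 9681, 12277 and 9281 CPM against 12647, 15360 and 10951 CPM, lower within each recipient (log2 fold change -0.32, edgeR adjusted p = 2.7e-04), and kept its call after subtraction with -0.30.

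Some S phase genes were higher in GC-like cells, which by definition lay under the cycling cut. Of 19 tested, 9 were higher by edgeR (1 of them, Rrm2, among the genes that set the cut), 1 was called by DESeq2 and none was lower, with a median log2 fold change of 0.47 beside 0.00 over all genes, and 6 of 18 were higher after subtraction. Lig1, the ligase that joins fragments of the lagging strand, was at 185, 105 and 146 CPM in CD45.2 and 66.8, 37.7 and 95 CPM in CD45.1, every CD45.2 value above every CD45.1 value (log2 fold change 1.08, edgeR adjusted p = 9.0e-04; 1.13 after subtraction). Cdc6, which loads the replicative helicase, was at 45.4, 23.2 and 29.5 CPM against 9.28, 8.79 and 14.1 CPM, also without overlap (log2 fold change 1.46; 1.55 after subtraction). Pcna, the sliding clamp, was at 257, 147 and 225 CPM against 162, 95.4 and 185 CPM (log2 fold change 0.49), where recipient 2 of CD45.2 lay below recipients 1 and 3 of CD45.1. Mcm7 and Mcm5 of the helicase rose by 0.64 and 0.63, and Dut by 0.53. Of 15 G2 and M phase genes 8 were higher, some of which set the class, and after subtraction edgeR called 0 of 9, with 5 at an unadjusted p under 0.05.

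Plasma cell and naive genes were called higher in GC-like CD45.2 cells before subtraction and not after it. Of 21 plasma cell genes 6 were higher, and after subtraction 1 of 19 was lower and none higher. Of 15 naive and follicular genes 6 were higher and 1 lower, and after subtraction edgeR called 0 of 12, with 4 at an unadjusted p under 0.05.

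Non-GC-like cells had 281 genes higher and 424 lower of 9815 (2.86% and 4.32%, together 7.18%), and 182 and 361 of 9504 after subtraction (1.91% and 3.8%, together 5.71%). Without recipient 3 there were 89 and 180, and without the block 163 and 172. Memory genes were lower. Of 20 memory genes 13 were lower and none higher, with a median log2 fold change of -0.47, and 10 were lower after subtraction. S100a6, a calcium-binding protein of activated and memory lymphocytes, was at 103, 183 and 163 CPM in CD45.2 and 292, 948 and 251 CPM in CD45.1. CD45.1 recipient 2 stood far above the rest, and the sorts did not overlap (log2 fold change -1.52; -1.30 after subtraction). Vim, the intermediate filament vimentin, was at 330, 309 and 313 CPM against 547, 893 and 565 CPM (log2 fold change -1.04, SE 0.09).

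Capg, an actin-capping protein, was at 335, 306 and 328 CPM against 525, 609 and 539 CPM (log2 fold change -0.79), tight within each sort. Zbtb32, a repressor that restrains memory B cell recall, was at 40.001, 40.5 and 44.3 CPM against 57.4, 112 and 77.2 CPM (log2 fold change -0.96). Lgals1, which encodes galectin-1, was at 108, 106 and 107 CPM against 206, 253 and 154 CPM (log2 fold change -0.88). Emp3 and S100a10 both had a log2 fold change of -0.66. Cd80, a marker of memory B cells, was not called, with -0.90.

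Lyz2 was at 1.68, 3.49 and 0.303 CPM in CD45.2 and 241, 167 and 78.5 CPM in CD45.1 non-GC-like cells (log2 fold change -6.38, SE 0.21). Of the 5 myeloid genes tested, Cd68 and Itgam were lower in CD45.2 with it, Cd68 at 10.5, 11.5 and 15 against 20.7, 37.5 and 18.7 CPM (log2 fold change -0.90) and Itgam at 44, 39.7 and 55.8 against 59, 84.7 and 63.8 CPM (-0.50), both without overlap. Both calls were lost after subtraction (edgeR adjusted p = 0.0696 and 0.355), and genes of the C1q complex and Csf1r were at or near 0 in both sorts. The summed myeloid list was 77.0, 82.9 and 90.2 counts per 1000000 in CD45.2 and 331, 293 and 162 in CD45.1. In CD45.1 non-plasma cells of the other recipients Lyz2 was at 1.70, 20.3 and 34.3 CPM, and in their CD45.2 cells at 0.605, 0 and 0.629 CPM. Ifitm3, an interferon-induced membrane protein that blocks viral entry, was at 4.54, 5.37 and 10.4 CPM against 49.5, 40.3 and 25.6 CPM (log2 fold change -2.35), while only 2 of 16 interferon genes were called in all, both lower.

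Among genes that were higher in non-GC-like CD45.2 cells, Btg1 was at 1614, 1540 and 1354 CPM against 1198, 1073 and 1052 CPM (log2 fold change 0.44). Il21r, the receptor for the T helper cytokine IL-21, was at 107, 108 and 94.0 CPM against 83.0, 52.8 and 61.6 CPM, without overlap (log2 fold change 0.65; 0.69 after subtraction). GC identity genes were called higher in 15 of 20 and G2 and M phase genes in 11 of 19, and after subtraction in 1 of 19 and 0 of 8, with 2 and 6 lower. The part of RNA of other cells in these calls was not tested beyond this.

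Cycling cells had 219 genes higher and 337 lower of 9415 (2.33% and 3.58%, together 5.91%), and 197 and 328 of 9154 after subtraction (2.15% and 3.58%, together 5.74%). Without recipient 2 there were 100 and 187. The plasma cell genes had their lowest median here, among the 5 populations compared. Of 24, 21 were lower and 1 higher, with a median log2 fold change of -1.03, and 23 of 23 were lower after subtraction. Since subtraction takes a larger share of the library profile, rich in plasma cell RNA, off the CD45.2 sums, it lowers these genes there by construction, and the second count is no added support. Xbp1, the transcription factor that builds the secretory apparatus, was at 164, 189 and 238 CPM in CD45.2 and 315, 478 and 715 CPM in CD45.1. All CD45.2 values lay below all CD45.1 values, which themselves spread by more than 2-fold (log2 fold change -1.33, SE 0.09; -1.97 after subtraction). Hsp90b1, a chaperone of the endoplasmic reticulum, was at 360, 458 and 624 CPM against 840, 1506 and 2448 CPM (log2 fold change -1.67).

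Sdc1, which encodes the plasma cell marker CD138, was at 3.45, 5.34 and 9.78 CPM against 8.37, 30.5 and 41.6 CPM (log2 fold change -2.10), with CD45.1 recipient 1 inside the CD45.2 range. Tnfrsf17, which encodes the plasma cell survival receptor BCMA, had -2.21. Prdm1, the regulator that starts the plasma cell programme, did not pass the test (-1.13, edgeR adjusted p = 0.059). Slpi, a secreted protease inhibitor, was the exception with 0.83 before subtraction and was not tested after it.

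Cyclins moved in opposite directions in cycling cells. Ccnd2, a D-type cyclin of the G1 phase, was at 14.8, 21.2 and 47.0 CPM in CD45.2 and 33.5, 72.0 and 103 CPM in CD45.1, lower within each recipient (log2 fold change -1.31; -2.10 after subtraction). Ccnd3, the D cyclin of dark zone divisions, had a log2 fold change of 0.39, or 0.49 after subtraction. Ighd was at 115, 144 and 110 CPM against 19.5, 29.1 and 33.6 CPM, without overlap (log2 fold change 2.08; 1.36 after subtraction). Ighg2b was at 120, 155 and 460 CPM against 57.2, 34.6 and 169 CPM, higher within each recipient (log2 fold change 1.49). Of 20 S phase genes 1 was lower and of 20 G2 and M phase genes 4 were lower, and after subtraction 3 and 3 were higher instead.

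**Figure D4:**
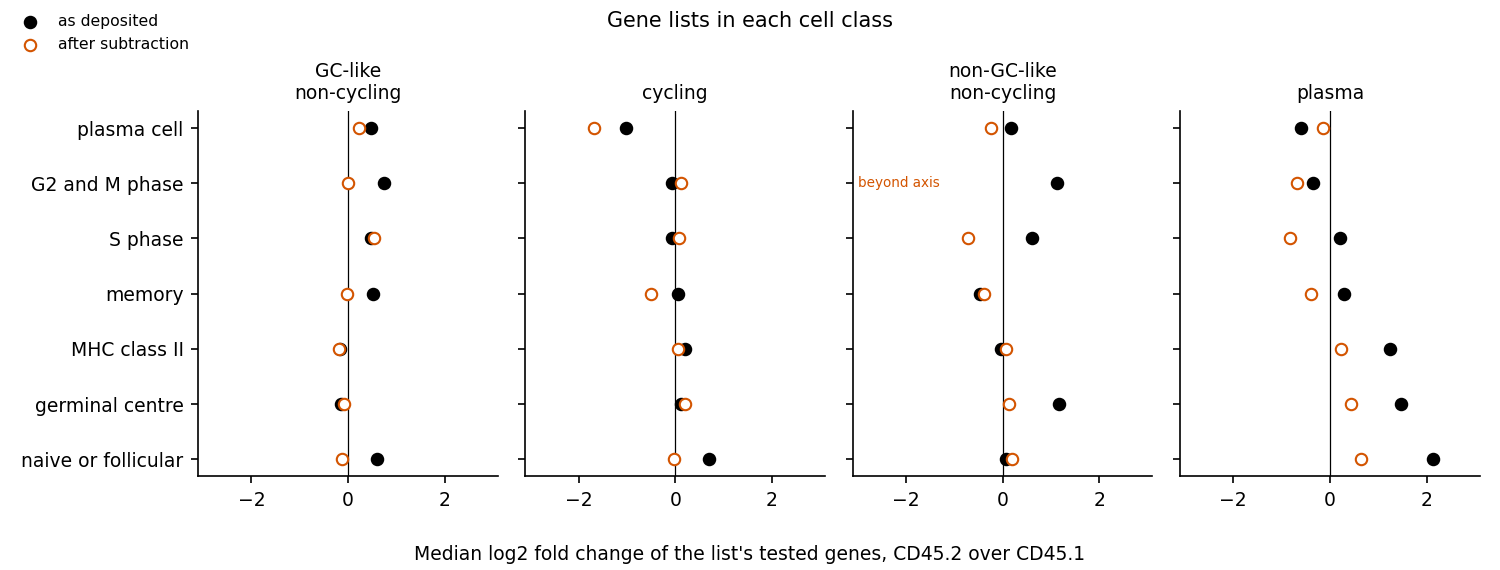
Median log2 fold change of CD45.2 over CD45.1 for the tested genes of 7 gene lists in each cell class, as deposited (filled) and after subtraction of RNA of other cells (open). The plasma cell list lies lowest in cycling cells, the memory list is lower in non-GC-like cells, and the naive or follicular list in plasma cells moves from 2.13 to 0.64; the G2 and M phase list of non-GC-like cells lies beyond the axis after subtraction.

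Plasma cells differed in far more genes than other cells as deposited, with 1327 higher and 1306 lower of 9207 (14.4% and 14.2%, together 28.6%). After subtraction these were 211 and 296 of 8654 (2.44% and 3.42%, together 5.86%), and 466 genes, or 17.7% of those first called, kept their call and direction while 159 turned sign. Values of the 2 sorts did not overlap for 37.0% of the genes tested in plasma cells. The cells numbered 396, 749 and 492 in CD45.2 and 76, 173 and 417 in CD45.1. Genes that plasma cells switch off stood out most. Spib and Pax5, transcription factors of B cell identity, were at 65.7, 61.9 and 47.2 and at 51.2, 52.1 and 32.0 CPM in CD45.2 and at 3.12, 4.66 and 2.35 and at 3.12, 3.33 and 2.82 CPM in CD45.1 (log2 fold changes 4.12 and 3.70). Ciita, the activator of MHC class II genes, was at 53.7, 57.2 and 36.2 CPM against 1.56, 2.66 and 2.82 CPM (log2 fold change 4.02). None of these 3 genes had enough counts left to be tested after subtraction.

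All 16 naive and follicular genes, 15 of 20 GC identity genes and all 10 MHC class II genes were higher in CD45.2 plasma cells, and after subtraction 3 of 11, 2 of 18 and 2 of 9. Ms4a1, the gene of CD20, was at 404, 408 and 269 counts per 1000000 against 67.1, 75 and 49. Genes that kept the call were Btg1, at 244, 261 and 132 CPM against 28.1, 38.6 and 11.1 CPM (log2 fold change 3.15; 1.78 after subtraction, edgeR adjusted p = 0.017), Fcer2a, which encodes the IgE receptor CD23 (3.57; 2.88 after subtraction), and Cd22, an inhibitory receptor (3.12; 2.16). Among cells of 3000 to 7000 UMIs, however, Btg1 had 0.80 (edgeR adjusted p = 0.134) and Fcer2a 1.93 (edgeR adjusted p = 0.0557), and neither was called. Bach2, which opposes plasma cell fate, had 3.54 and 2.64, and Bcl11a 3.41 and 2.27, the last no longer called (adjusted p = 0.052).

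Apoe, the lipid carrier apolipoprotein E, was at 1205, 2270 and 353 CPM in CD45.2 and 73.4, 560 and 19.1 CPM in CD45.1 plasma cells. It varied over a wide range between recipients in the same order in both sorts, so that CD45.1 recipient 2 lay above CD45.2 recipient 3, and was higher in CD45.2 within each recipient (log2 fold change 3.09; 3.64 after subtraction, edgeR adjusted p = 3.1e-05). The stress gene Ddit3, which encodes CHOP, was at 44.9, 41.8 and 39.2 CPM against 21.9, 24.7 and 21.2 CPM (log2 fold change 0.87) and kept its call after subtraction. Il21r was the 1 survival receptor gene that stayed higher after subtraction, and Bcl2l11 was called only then (0.50, edgeR adjusted p = 0.015, against 0.05 before).

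The secretory genes were lower in CD45.2 plasma cells. Of 24 plasma cell genes 18 were lower and 1 higher, with a median log2 fold change of -0.59, and after subtraction 6 were lower and 1 higher, with a median of -0.14. Hsp90b1 was at 3143, 3325 and 4466 CPM in CD45.2 and 6811, 7016 and 6955 CPM in CD45.1, without overlap (log2 fold change -0.94; -0.49 after subtraction, edgeR adjusted p = 0.015). Mzb1, a cochaperone for antibody assembly, was at 5284, 5066 and 6595 CPM against 9304, 9762 and 9714 CPM (log2 fold change -0.77; -0.34 after subtraction). Xbp1 was at 1565, 1543 and 1946 CPM against 2517, 2415 and 2462 CPM (log2 fold change -0.55), a call lost after subtraction (-0.10, adjusted p = 0.637). Prdm1 was not called, at 111, 102 and 74.0 CPM against 114, 108 and 100 CPM (-0.22, adjusted p = 0.115).

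Slpi ran against its list. It was at 5442, 4480 and 5237 CPM in CD45.2 and 3124, 3267 and 3022 CPM in CD45.1, without overlap (log2 fold change 0.68; 1.15 after subtraction). Tnfrsf17 was at 58.4, 91.3 and 171 CPM against 172, 192 and 364 CPM, lower within each recipient (log2 fold change -1.18; -0.74 after subtraction, edgeR adjusted p = 0.0042). Of the division genes in plasma cells 7 of 20 G2 and M phase genes were lower and none higher, and Mki67 was at 166, 151 and 228 CPM against 356, 208 and 296 CPM (log2 fold change -0.61).

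Genes of antibody constant regions differed as well. Whether the Ighg counts came from antibody made by MD4 cells was not tested. Ighg2b was at 405, 555 and 202 CPM in CD45.2 and 2570, 1724 and 477 CPM in CD45.1 plasma cells, lower within each recipient and the reverse of its direction outside plasma cells (log2 fold change -1.84, SE 0.15; -1.56 after subtraction). Ighg1 was at 511, 630 and 471 CPM against 864, 1005 and 944 CPM (log2 fold change -0.81; -0.54 after subtraction), while in the other recipients its difference between the sorts was 0.97 (edgeR adjusted p = 0.0483), the opposite direction. Ighm, the constant region of the MD4 transgene's IgM, was at 68565, 58553 and 70618 CPM against 56095, 53179 and 62032 CPM, higher within each recipient (log2 fold change 0.21; 0.66 after subtraction). Igkc, the kappa constant region, was at 212950, 213850 and 242140 CPM against 293640, 330290 and 316540 CPM, a difference of -0.49 that fell to -0.04 after subtraction (edgeR adjusted p = 0.837). These genes take a large part of the counts, and normalization by TMM moved the median gene by -0.24 (log2) relative to scaling by total counts.

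The remaining genes named by rule were lower in CD45.2 plasma cells both before and after subtraction. Ctse was at 9.81, 11.2 and 10.0 CPM against 46.9, 58.0 and 60.7 CPM (log2 fold change -2.44). Ckb, a creatine kinase, had 13.2, 15.9 and 15.2 CPM against 67.2, 37.3 and 53.2 CPM (-1.73), and Epcam, an adhesion molecule, 14.7, 20.02 and 26.6 CPM against 46.9, 55.3 and 58.8 CPM (-1.35). Ssr2 was at 318, 347 and 478 CPM against 804, 883 and 902 CPM (-1.19). Tmem176a, Evi5 and Ide had -1.21, -1.16 and -1.16, and AY036118 had -1.24.

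A small set of genes differed in every class. Of 7244 genes tested in plasma, cycling, GC-like and non-GC-like cells, 56 were called in all 4, of which 25 were higher and 20 lower throughout, and 21 were called in all 4 also after subtraction. Gm10801, another predicted gene of the Gm10800 kind, had log2 fold changes of 3.98, 4.79, 3.34 and 5.46 in that order of classes, Snhg9 2.09, 1.92, 2.24 and 2.44, and Ctse -2.44, -1.67, -1.88 and -3.86. Genes of the ribosome and of mitochondria took part. Rack1, Rpl7 and Rps3 of the ribosome were lower, with -0.50, -0.69 and -0.54 in plasma and -0.48, -0.33 and -0.35 in GC-like cells. On the mitochondrial genome mt-Atp8 had 0.89 in plasma and 0.96 in GC-like cells, where mt-Nd4 had -0.34 and -0.44. Tpt1, a tumour protein controlled by translation, had -0.85, -0.49, -0.52 and -0.58.

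The CD45.1 mice carry a stretch of chromosome 1 from another strain around Ptprc, so genes were also counted by their distance from it. Ptprc lies on chromosome 1 of GRCm38 from 138062861 to 138175708. In non-plasma cells 13 of 82 genes within 10 Mb of its midpoint were called, or 15.9%, against 339 of 10257 on other chromosomes, or 3.31%. Further out on chromosome 1 the share was 0 of 57 at 10 to 20 Mb by edgeR, with 7 at an unadjusted p under 0.05 and 0 by DESeq2, 4 of 127 at 20 to 40 Mb and 5 of 241 at 40 to 80 Mb. After subtraction 9 of 81 within 10 Mb and 227 of 10102 on other chromosomes were called. The share within 10 Mb was also above that on other chromosomes in plasma (37.7% and 28.5%), cycling (15.5% and 5.88%), GC-like (13.5% and 3.32%) and non-GC-like cells (20.3% and 7.10%). In plasma cells the share did not fall off with distance in the same way, with 15 of 53 at 10 to 20 Mb and 39 of 107, or 36.4%, at 20 to 40 Mb.

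The genes in this stretch include Ctse, Cd55, Cxcr4 and Rgs13, described above. Rnpep, an aminopeptidase, was at 33.7, 35.1 and 30.6 CPM in CD45.2 and 4.57, 6.79 and 8.32 CPM in CD45.1 non-plasma cells (log2 fold change 2.22, SE 0.18, edgeR adjusted p = 3.3e-05). Rgs18, a regulator of G protein signals, was at 12.2, 15.2 and 12.4 CPM against 3.05, 2.54 and 1.22 CPM (log2 fold change 2.71). Ppfia4 was at 21.2, 13.9 and 16.3 CPM in CD45.2 and at 0, 0 and 0.203 CPM in CD45.1, and A230059L01Rik at 6.63, 7.78 and 6.10 CPM with no UMI in CD45.1. For these 4 genes each CD45.2 value was above each CD45.1 value. Bcl2 lies on the same chromosome 31.5 Mb from Ptprc, outside that stretch of called genes.

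**Figure D5:**
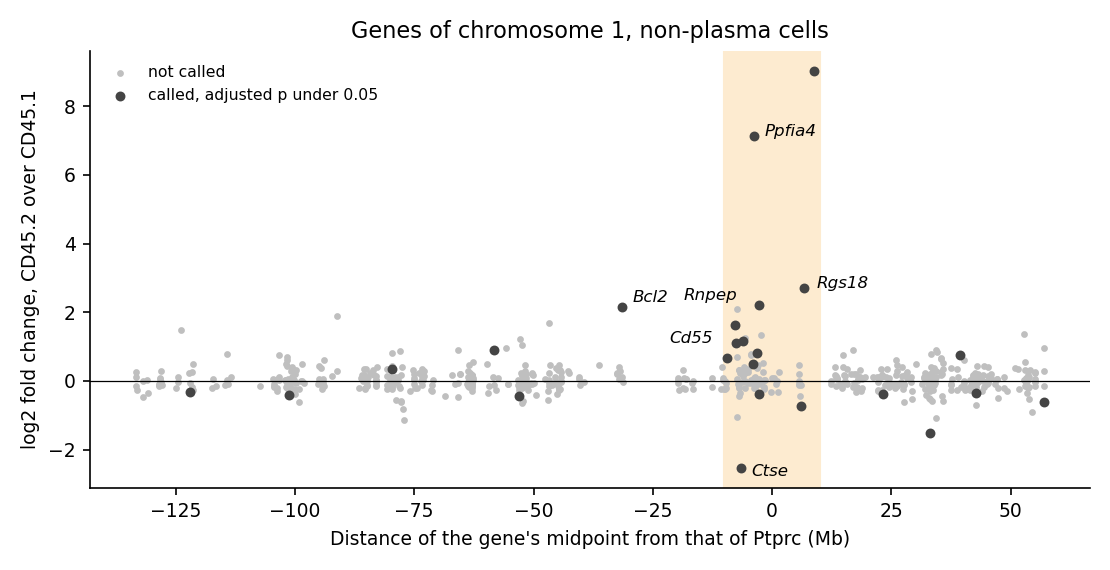
Log2 fold change of CD45.2 over CD45.1 non-plasma cells for tested genes of chromosome 1 against the distance of the gene's midpoint from that of Ptprc in Mb, with called genes dark and the 10 Mb on either side shaded. Of the 82 genes in the shaded stretch 13 are called, 8 of them with a log2 fold change beyond 1 in either direction.

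In the recipients whose CD45.2 cells were also Dock8 mutant, the same sorts were compared within other animals of the same libraries. The difference between the sorts there was 2.54 for Bcl2 (164, 161 and 183 CPM against 28.9, 24.5 and 34.3), -2.02 for Ctse, 1.44 for Ighd and 1.41 for Cd55 on the log2 scale in non-plasma cells. The interaction of sort with recipient group was called by edgeR for 1 of 9781 genes in non-plasma cells (0.0102%), Xist, and for 29 of 7903 in plasma cells (0.367%), where the other recipients had 7, 17 and 56 CD45.2 and 74, 128 and 203 CD45.1 cells. Among these was Bcl2 in plasma cells, where the other recipients had 453, 442 and 494 CPM in CD45.2 and 26, 30.7 and 27.2 CPM in CD45.1. Each of those CD45.1 values was below each CD45.1 value of the WT group.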

How the data were processed

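Single-cell 3′ mRNA libraries were made by the authors with 10X chemistry from the CD45.2 and CD45.1 sorts, and per the labels and methods Cell Ranger 5.0.1, Seurat 4.0 and the mouse genome mm10 (GRCm38) were used. The deposited matrices hold UMI counts per gene and barcode and hashtag counts per barcode, not normalized. Positions came from GENCODE vM21.

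Counts of unthinned cells, classed without thinning, were summed per recipient, sort and class. Sums were tested with edgeR 4.0.16 in R 4.3.3 (quasi-likelihood test, TMM, filterByExpr, recipient as block, Benjamini-Hochberg adjusted p under 0.05), with DESeq2 1.42.0 as an alternative. The block rests on the animal, since both sorts of a pair came from the same recipient; the correlation of their deviations ran from -0.01 to 0.27 over the 5 populations. CPM are TMM-normalized. Shares were compared with the exact permutation of signs over recipients. Cells were thinned to 2000 UMIs (seed 1; 37, 96 and 18 CD45.2 and 13, 21 and 35 CD45.1 cells were too shallow and left out of thinned shares). Doublets were kept, and as an alternative the 6% of cells with the highest Scrublet scores were left out. Subtraction took the median level of 10 B cell genes in T cells, as a share of the library, times the library's mean profile off each sum. On simulated data 2-fold changes were recovered in 84.8% of non-plasma, 71.9% of plasma, 67.3% of cycling, 72.3% of GC-like and 85.1% of non-GC-like cases, with at most 0.151% false calls.

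Genes are named as members of lists by role, as the 10 largest rises and 10 largest falls among called genes with a mean of at least 20 CPM and the same sign in all recipients (non-plasma and plasma cells), or as Bcl2, Ptprc and sex-linked genes. Il21r is a list member; Rnpep, Rgs18, Ppfia4, A230059L01Rik, Gm10801, Snhg9 and the ribosomal and mitochondrial genes of the count over all classes were chosen after their values were seen where the rule did not name them. The comparison, its members and the lists were chosen with earlier results of these data known. Alternatives were other depth, mitochondrial, hashtag and Jchain limits, no filter, no block, thinning and leaving out each recipient. Some genes are not reported here.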

Additional observations from a re-analysis of the deposited data

Results flagged for a closer look

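The difference between the sorts was itself compared between the recipients of the WT group and those whose CD45.2 cells were also Dock8 mutant, by the edgeR interaction term. Values are the WT-group difference less that of the other recipients on the log2 scale. In non-plasma cells it differed for Xist, by 2.17 (edgeR adjusted p = 9.2e-10), and in plasma cells Xist differed by 2.67; Y-linked UMIs were frequent in the CD45.2 cells of the other recipients and scarce in those of the WT group. In plasma cells, where the other recipients had only 7, 17 and 56 CD45.2 cells, the value was below 0 for Bcl2 (-2.78, edgeR adjusted p = 1.0e-16), for Slpi (-1.74) and for Ighg1 (-1.68), whose own difference was -0.81 in the WT group and 0.97 in the other recipients, and also for Epcam (-1.44, edgeR adjusted p = 0.027), Tmem176a (-1.17, edgeR adjusted p = 0.047) and Plac8 (-0.96). It was above 0 for Ighg3 (3.78), Ighg2c (2.56), Apoe (1.92), Vim (1.35) and Crip1 (0.84). The part of the Bcl2-high CD45.1 plasma cells of the WT group in these values was not tested.

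CD45.2 barcodes without any hashtag count, which enter no comparison between recipients, held GC-like cells at 37.3% of GC-like plus non-GC-like barcodes, above the 12.8% of assigned barcodes of the same library. In the CD45.1 library these shares were 62.7% and 47.2%.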

How the results depend on the processing

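The 3 recipients of a sort shared 1 library, and sort, library, CD45 allele, donor and transgene cannot be told apart. The smallest profiles limit precision, with 76 CD45.1 plasma cells and 84 CD45.2 GC-like cells in recipient 1. Among 826 values of 48 named results under alternatives, 796 kept direction and call, 27 kept direction and lost the call, and 3 turned direction (S100a6 to 0.078 and Iglv1 to 0.19 among cells of 3000 to 7000 UMIs, and Iglv1 to 0.081 with the Jchain limit at 50); for 30 results no alternative lost the call. The cause was not tested unless a value is given. The depth range, the subtraction, equal cell numbers and the gate without Ighd were chosen after the data were seen.

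Counts of genes higher and lower in CD45.2 moved by over 1.5 times as follows. DESeq2 called 92 and 93 in non-plasma, 552 and 616 in plasma, 73 and 132 in cycling and 81 and 227 in non-GC-like cells, and 45 higher in GC-like cells. Without the filter on low counts there were 548 and 293 in non-plasma and 252 and 153 in GC-like cells, 372 higher in cycling cells, and 22 and 11 for the difference between recipient groups, more genes being tested. Without the replicate block, which pairs sorts by animal, there were 61 and 20 in GC-like and 163 and 172 in non-GC-like cells; the other counts stayed within 1.5 times. Thinning gave 267 higher in non-plasma, 456 and 433 in plasma, 71 and 40 in cycling, 85 higher in GC-like, and 112 and 208 in non-GC-like cells. Subtraction gave 103 higher in non-plasma, 211 and 296 in plasma, 51 and 39 in GC-like and 182 higher in non-GC-like cells. Cells of 3000 to 7000 UMIs gave 674 and 689 in non-plasma, 74 and 84 in plasma, 64 and 25 in cycling and 159 and 241 in non-GC-like cells. Leaving out doublet scores gave 114 and 112, fitting 6 recipients together 297 and 310, and the Jchain limit at 50 gave 120 lower in non-plasma cells. In GC-like cells equal cell numbers gave 99 higher and the gate without Ighd 165 lower.

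Leaving out 1 recipient, counts higher and lower ran from 42 to 828 and 27 to 767 in non-plasma, 963 to 1184 and 950 to 1135 in plasma, 100 to 266 and 187 to 415 in cycling, 34 to 209 and 12 to 145 in GC-like, and 89 to 303 and 180 to 396 in non-GC-like cells.  The share difference ran from -22.8 to -15.8 points for GC-like, 18.4 to 28.2 for non-GC-like, -8.43 to -3.98 for plasma, -0.587 to 6.24 for cycling, -0.872 to -0.369 for T and 0.0024 to 0.303 for undecided cells, which had -0.443 without thinning. At 3000 to 7000 UMIs it was 1.70 for plasma and -5.65 for cycling cells.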
